A study of Ovis aries with 24 samples.

Results

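Collagen genes are those whose gene name reads COL, a number, A and a number, 1 gene for each collagen chain. The rule found 42 of them among the 27054 features of the count tables, and 36 of the 42 had enough reads over the 4 groups to count as expressed. The other 6 were COL6A5, COL6A6, COL9A3, COL22A1, COL25A1 and COL26A1, each with a mean under 1 CPM (counts scaled to a common library size) in every group. The cells were primary pituitary cultures of ovariectomized Western white faced ewes. A day (24 hours) after dispersal they were infected with an adenovirus that drives green fluorescent protein in gonadotropes, the gonadotropin-secreting cells, and 3 days later they received 10 nM estradiol (E2) or ethanol vehicle for 6 hours. The RNA-seq libraries fall into 4 groups of 6: cells sorted by FACS and unsorted cells, each with vehicle and with E2. All 4 groups share the ovariectomy, the culture on plastic and the virus. The viral reporter, and not a surface marker, set which cells could be sorted.

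Collagens are trimeric matrix proteins that fold in the endoplasmic reticulum, are secreted as procollagen and assemble outside the cell into fibrils, sheets or filaments. Fibrillar collagens give connective tissue its strength, type IV collagen forms the network of basement membranes, and the remaining classes coat fibrils, build small filaments or span the plasma membrane. In the pituitary, stromal cells such as fibroblasts and pericytes, which lie along the capillaries, are known sources of collagen.

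Libraries with replicate numbers 1 to 3 held 4185088 to 6189629 counts and those with numbers 4 to 6 held 19216735 to 37042448; every group has 3 libraries of each kind. The label of the sort was checked on the gonadotrope markers CGA, LHB, FSHB, GNRHR and NR5A1. All 5 were higher in sorted libraries, and their summed level was 2467 to 5561 CPM in sorted and 286 to 1379 CPM in unsorted vehicle libraries. The lactotrope and somatotrope markers PRL, GH and POU1F1 were all 3 higher too, and summed to 77345 to 203611 CPM in sorted and 45794 to 119903 CPM in unsorted vehicle libraries. Transcripts of these 3 markers were thus not depleted by the sort, and the sorted cells are not called gonadotropes here. Markers of the remaining hormone cells were not examined. CPM here is relative to TMM-scaled library sizes and not corrected for gene length, so levels are compared between libraries and not between genes. Nothing in the labels says that replicates were separate animals or cultures, so p-values measure the spread between these libraries. Each fit had the replicate number as a block, which pairs libraries of equal number.

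Collagen transcripts took a smaller part of the sorted libraries than of the unsorted ones. Reads of the 42 genes made up 0.109 to 0.230% of counts in sorted vehicle libraries, with a median of 0.164%, and 0.528 to 1.22% in unsorted vehicle libraries, with a median of 0.871%. With E2 the range was 0.120 to 0.281% (median 0.182%) in sorted and 0.558 to 1.11% (median 0.789%) in unsorted libraries. No sorted library reached the lowest unsorted one. With vehicle the means were 0.170 ± 0.042% (SD, n = 6) in sorted and 0.846 ± 0.258% in unsorted libraries. With E2 they were 0.184 ± 0.063% and 0.790 ± 0.195%. In unsorted vehicle libraries the share was 0.528 to 0.842% in replicates 1 to 3 and 0.900 to 1.22% in replicates 4 to 6, so the depth sets stood apart there. In sorted vehicle libraries they overlapped, at 0.109 to 0.202% and 0.152 to 0.230%.

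**Figure D1:**
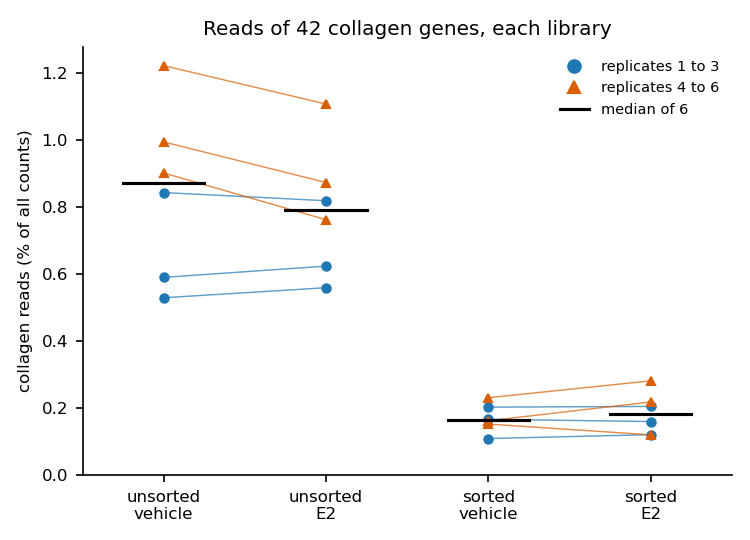
Reads of the 42 collagen genes as a percent of all gene counts, 1 point per library in each of the 4 groups, with lines joining equal replicate numbers. The sorted libraries sit between 0.109 and 0.281%, all below the lowest unsorted library at 0.528%.

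The makeup of the collagen reads also differed between the preparations. COL1A1 and COL1A2, both chains of type I collagen, together gave 35.8 ± 7.27% (SD, n = 6) of collagen reads in unsorted and 24.8 ± 3.83% in sorted vehicle libraries. The ranges of this share overlapped, and in the unsorted group replicates 4 to 6 all lay above replicates 1 to 3. COL5A2, a chain of type V collagen that joins type I fibrils, gave 6.14 to 8.88% in unsorted and 12.1 to 24.9% in sorted vehicle libraries. COL15A1, a basement membrane zone collagen with a cleavable end domain, gave 0.210 ± 0.089% in unsorted and 2.55 ± 0.809% in sorted vehicle libraries, and these ranges did not overlap. These shares are descriptions and were not tested.

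The first comparison asked which transcripts the sort enriched or depleted in vehicle-treated cells. Most collagen genes were lower in sorted cells. Of 34 collagen genes tested 27 were lower, 3 were higher (COL13A1, COL15A1 and COL28A1) and 4 did not pass, with a median log2 fold change of -2.10. Over all 14468 genes tested 63.6% were called, 31.1% lower and 32.5% higher, and the median was 0.02. A gene is called where its Benjamini-Hochberg adjusted p over all genes tested is under 0.05 in edgeR's quasi-likelihood test. For 21 of the collagen genes every sorted vehicle library lay below every unsorted one, which held for 16.4% of all genes. For 0 of them did every sorted library lie above every unsorted one, which held for 11.3% of all genes. The low-count filter keeps a gene that reaches its minimum in 1 group alone, so a gene could pass through the group where it was high. With no filter all 42 were tested, 28 were called lower and 4 higher. Over all 22067 genes of that fit 4800 were called lower and 4903 higher.

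Markers of stromal and other cells were counted in the same comparison, where 63.6% of all genes were called, 31.1% lower and 32.5% higher. The lists are short, so their counts are given beside that share and are not read as a result. The fibroblast and pericyte list (10 genes, collagens left out) had 5 of 8 tested genes lower and 1 higher with a median log2 fold change of -0.65, and its summed level was 685 to 1233 CPM in sorted and 3823 to 7691 CPM in unsorted vehicle libraries. Its genes of highest CPM, ACTA2 and TAGLN, which encode smooth muscle contractile proteins, were lower by -2.91 ± 0.08 and -2.71 ± 0.11 (log2 fold change ± SE), while DCN, for decorin, was higher by 0.82 ± 0.14. The endothelial list had 5 of 8 tested genes lower and 1 higher, at 18.1 to 49.5 CPM in sorted and 44.7 to 96.6 CPM in unsorted libraries. The folliculostellate and stem cell list had 5 of 7 lower and 2 higher, at 1618 to 2097 CPM and 2255 to 2765 CPM. The immune list had 1 of 4 lower and 1 higher, at 9.80 to 16.7 CPM and 13.2 to 32.7 CPM. No gene found in these lists was at 0 in all libraries of a group. The part of these cells in the collagen results was not tested, and in bulk libraries fewer cells of a type and less RNA per cell cannot be told apart.

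Fibrillar collagens were lower as a class, in 10 of 11 genes. COL1A1 (ENSOARG00000004871), the alpha-1 chain of type I collagen, ranged from 91.1 to 340 CPM (median 206) in sorted vehicle libraries and from 595 to 2785 CPM (median 1649) in unsorted vehicle libraries. The groups did not overlap, and in the unsorted group replicates 4 to 6 lay above replicates 1 to 3. COL1A1 was lower in sorted cells by -2.82 ± 0.15 (7.06-fold; adjusted p = 2.3e-07), at -2.47 ± 0.12 in numbers 1 to 3 alone and -3.15 ± 0.09 in numbers 4 to 6 alone. Its partner chain COL1A2 (ENSOARG00000001508) ranged from 136 to 314 CPM (median 214) in sorted and from 839 to 2592 CPM (median 1547) in unsorted libraries. It was lower by -2.77 ± 0.14 (adjusted p = 1.3e-07), within the error of COL1A1. COL3A1, for type III collagen of reticular fibres, was lower by -2.47 ± 0.10. Its sorted libraries held 74.0 to 183 CPM and its unsorted ones 429 to 1017 CPM.

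The largest fall of any collagen gene in this comparison was that of COL5A3, a minor type V chain, from 24.9 ± 13.8 CPM (SD, n = 6) in unsorted to 2.22 ± 1.11 CPM in sorted libraries (-3.50 ± 0.18; 11.3-fold). Its companion COL5A1 fell by 2.55 ± 0.21 on the log2 scale. COL5A2 fell by only 1.23 ± 0.11, from 621 ± 129 to 268 ± 88.3 CPM. COL2A1, the type II collagen of cartilage, was lower by -2.83 ± 0.14, from 48.2 ± 23.2 to 6.94 ± 4.00 CPM. The type XI chains COL11A1 and COL11A2, which nucleate thin fibrils, were lower by -2.51 ± 0.09 and -2.22 ± 0.27. COL27A1 was lower by -0.83 ± 0.29 (adjusted p = 0.037). It was lower in sorted libraries for 4 of 6 replicate numbers, and its call was lost without number 2, 3, 4 or 5 (adjusted p 0.00945 to 0.104 over the numbers left out). COL24A1 did not differ beyond its error (-0.00 ± 0.32; 95% interval -0.71 to 0.70), with means of 1.49 ± 0.450 CPM (sorted) and 1.74 ± 0.858 CPM (unsorted).

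All 6 type IV collagen genes of the basement membrane were lower. COL4A1 (ENSOARG00000006115), with COL4A2 the chain found in nearly all basement membranes, ranged from 97.8 to 232 CPM (median 157) in sorted and from 600 to 1480 CPM (median 1033) in unsorted vehicle libraries. The groups did not overlap. COL4A1 was lower by -2.59 ± 0.10 (6.03-fold; adjusted p = 1.4e-08) and COL4A2 by -2.60 ± 0.10. The chains of more restricted membranes were lower by smaller amounts in part: COL4A3 by -0.94 ± 0.12, COL4A4 by -1.64 ± 0.08, COL4A5 by -2.38 ± 0.14 and COL4A6 by -1.94 ± 0.15. COL4A3 was the 1 gene of the class whose groups overlapped, with 10.2 to 19.1 CPM after the sort and 17.3 to 40.8 CPM without it.

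Among the 11 filament, anchoring and network collagens 6 were tested, and 3 were lower and 1 higher. COL6A1 and COL6A2, chains of the type VI microfibril, were lower by -2.73 ± 0.16 and -2.92 ± 0.22. COL6A3, the longest chain of the trimer, had overlapping groups, 20.6 to 54.9 CPM (sorted) and 18.7 to 134 CPM (unsorted). It did not pass (-0.91 ± 0.33; adjusted p = 0.054), and without replicate 3 it did (adjusted p 0.0105 to 0.119 over the numbers left out). COL8A1 (ENSOARG00000017875), a short-chain collagen of vessel walls, had the highest mean CPM of the class. It ranged from 20.3 to 63.4 CPM (median 37.0) in sorted and from 89.1 to 159 CPM (median 94.9) in unsorted libraries, with no overlap. It was lower by -1.53 ± 0.23 (adjusted p = 0.00090). COL7A1, the anchoring fibril collagen, did not differ beyond its error (-0.20 ± 0.22; 95% interval -0.70 to 0.29).

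Of 6 fibril-associated collagens tested 5 were lower. COL12A1 (ENSOARG00000006410), which binds the surface of type I fibrils, ranged from 117 to 310 CPM (median 214) in sorted and from 640 to 1443 CPM (median 868) in unsorted libraries. The groups did not overlap, and it was lower by -2.13 ± 0.17 (4.37-fold; adjusted p = 7.6e-06). COL9A2, a type IX chain, was lower by -2.64 ± 0.12 and COL16A1 by -2.06 ± 0.15. COL9A1 (-1.08 ± 0.38; adjusted p = 0.027) and COL14A1 (-0.64 ± 0.23; adjusted p = 0.032) lay nearer the threshold. The COL9A1 call was lost without replicate 1 (adjusted p = 0.057) and that of COL14A1 without number 1, 2, 4 or 5 (up to 0.101). COL21A1 did not pass (-0.98 ± 0.37; adjusted p = 0.056). It was lower for 5 of 6 numbers and was called without replicate 5 (adjusted p up to 0.162 without another number).

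The transmembrane collagens and the multiplexins COL15A1 and COL18A1 went in both directions. COL17A1 (ENSOARG00000005727), the transmembrane collagen of hemidesmosomes, ranged from 9.06 to 15.3 CPM (median 12.4) in sorted and from 27.7 to 105 CPM (median 56.0) in unsorted vehicle libraries. It was lower by -2.20 ± 0.18 (adjusted p = 6.0e-06), at -2.58 ± 0.15 in the shallow set (numbers 1 to 3) and -1.86 ± 0.16 in the deep set (numbers 4 to 6). Its unsorted level ran against that of COL1A1, since all 3 deep libraries lay below the 3 shallow ones. COL18A1, the source of endostatin, was lower by -2.66 ± 0.21. The remaining transmembrane gene COL23A1 was lower by -1.91 ± 0.40, at 0.724 ± 0.570 CPM in sorted libraries.

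COL15A1, COL13A1 and COL28A1 were higher in sorted cells. COL15A1 (ENSOARG00000010998) ranged from 17.2 to 69.0 CPM (median 44.7) in sorted and from 11.9 to 20.2 CPM (median 15.6) in unsorted vehicle libraries. Only sorted replicate 2 lay within the unsorted range, and the sorted level was higher for 6 of 6 replicate numbers. COL15A1 rose by 1.42 ± 0.28 (2.67-fold; adjusted p = 0.0034), 1.00 ± 0.28 in replicates 1 to 3 and 1.80 ± 0.16 in replicates 4 to 6. COL13A1 (ENSOARG00000005711), a transmembrane collagen of cell adhesions, was scarce, with 0.340 to 2.45 CPM (median 1.17) in sorted libraries. Its unsorted libraries held 0.175 to 0.798 CPM (median 0.468). It was higher for 6 of 6 numbers, with overlapping groups, and rose by 1.82 ± 0.33 (adjusted p = 0.00063). COL28A1 (ENSOARG00000005106), related to type VI collagen, ranged from 1.28 to 11.8 CPM (median 3.80) in sorted and from 0.600 to 5.59 CPM (median 1.23) in unsorted libraries. It too was higher for 6 of 6 numbers and rose by 1.23 ± 0.36 (adjusted p = 0.011; 0.081 without the replicate block and 0.11 in replicates 4 to 6 alone). COL13A1 was called without replicate 1, 2 or 3 and in replicates 4 to 6 alone. It missed the low-count filter, and so was not tested, without replicate 4, 5 or 6, in replicates 1 to 3 alone and with the stricter filter. COL28A1 missed the filter without replicate 6, and COL15A1 was then the 1 collagen gene called higher.

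**Figure D2:**
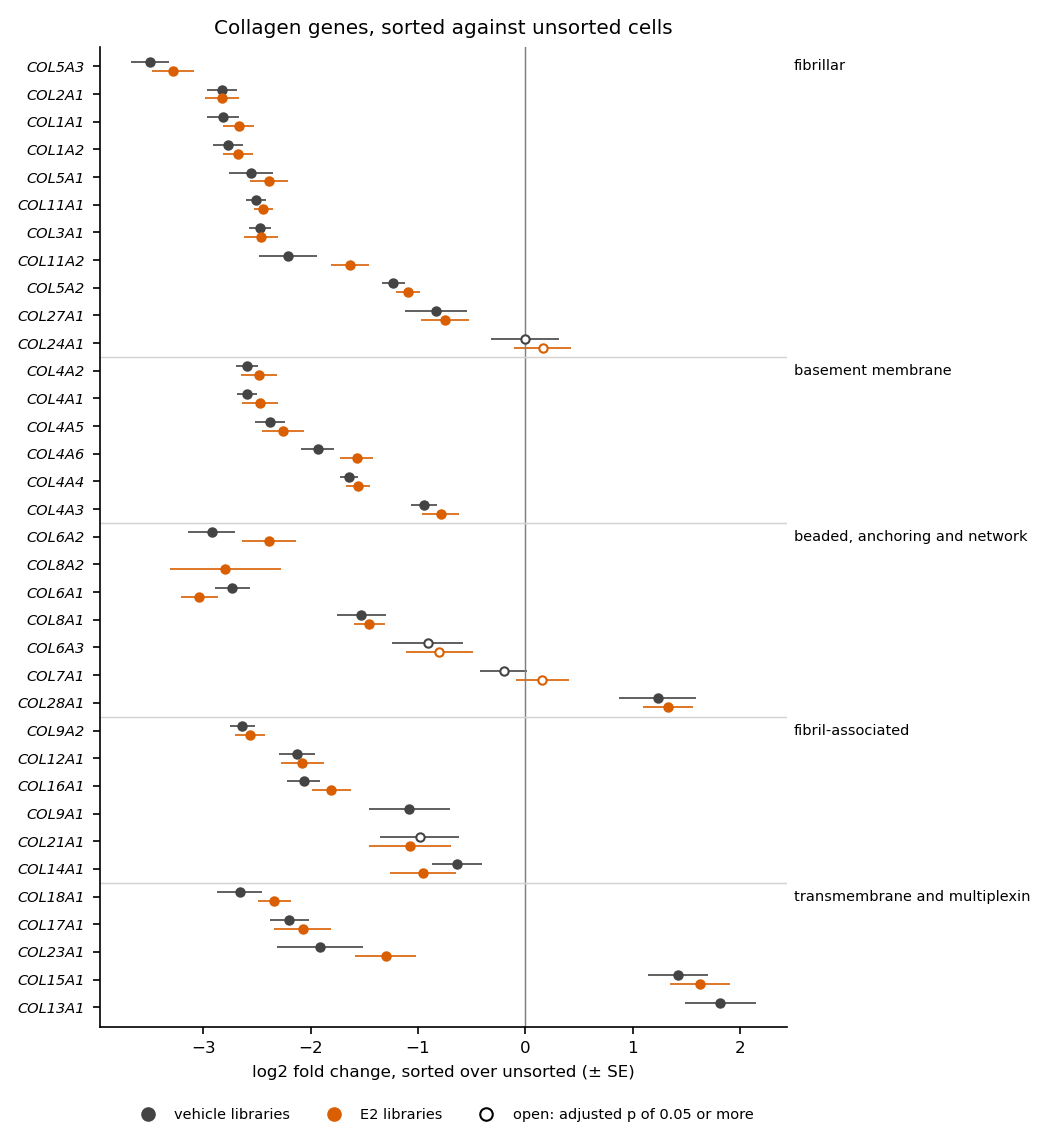
Log2 fold change of sorted against unsorted libraries for each tested collagen gene, by class, in vehicle and in E2, with bars of 1 SE and open symbols for an adjusted p of 0.05 or more. Most filled symbols lie below -1, and COL13A1 (vehicle), COL15A1 and COL28A1 lie above 0.

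The same comparison in E2-treated cells uses other libraries. Of 33 collagen genes tested 28 were lower, 2 were higher (COL15A1 and COL28A1) and 3 did not pass (COL6A3, COL7A1 and COL24A1), with a median of -2.07. Over all 14545 genes 65.7% were called, 31.8% lower and 33.9% higher. In 22 collagen genes every sorted library lay below every unsorted one, against 17.1% of all genes. COL1A1 ranged from 106 to 434 CPM (median 170) in sorted E2 and from 557 to 2513 CPM (median 1474) in unsorted E2 libraries, and was lower by -2.67 ± 0.15 (adjusted p = 4.7e-07). COL4A1 ranged from 85.1 to 295 CPM and from 655 to 1299 CPM and was lower by -2.47 ± 0.17. COL12A1 was lower by -2.08 ± 0.20, COL8A1 by -1.45 ± 0.14 and COL17A1 by -2.07 ± 0.27.

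The largest falls with E2 were those of COL5A3 (-3.28 ± 0.19), COL6A1 (-3.04 ± 0.18), COL2A1 (-2.82 ± 0.16) and COL8A2 (-2.80 ± 0.52), the last with means of 0.386 ± 0.327 CPM (sorted) and 2.27 ± 1.02 CPM (unsorted). COL1A2, COL1A1, COL9A2, COL4A2, COL4A1, COL3A1, COL11A1 and COL6A2 followed, at -2.68 to -2.39. COL8A2 had 0 to 19 reads per sorted E2 library, so the size of its fall is uncertain. It missed the filter in the vehicle comparison, and here it could pass through the unsorted group, where it was higher. COL15A1 ranged from 19.1 to 87.5 CPM (median 56.9) in sorted E2 and from 15.7 to 18.7 CPM (median 18.1) in unsorted E2 libraries, and rose by 1.62 ± 0.28 (3.08-fold; adjusted p = 0.0018). Its groups did not overlap, which held for 11.2% of all genes in that direction. COL28A1 rose by 1.33 ± 0.24 (adjusted p = 0.00057; 0.069 without the replicate block). COL21A1 was lower by -1.07 ± 0.39 (adjusted p = 0.049), a call lost without number 1, 2, 3, 4 or 6 (up to 0.117). With no filter COL6A6, COL10A1, COL13A1 and COL25A1 were also called higher, the first 3 of them also in replicates 4 to 6 alone. Over all genes these fits called 5122 of 22070 and 5050 of 15606 higher.

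COL10A1, the network collagen of growth plate cartilage, missed the filter of both sort comparisons. It ranged from 0 to 4.57 CPM (median 1.54) in sorted and from 0 to 0.709 CPM (median 0.155) in unsorted vehicle libraries. Its 6 sorted vehicle libraries held 192 reads and the 6 unsorted ones 39. With no filter it was called higher in both, by 2.95 (adjusted p = 2.7e-06) in vehicle and 2.16 (adjusted p = 0.00023) in E2. It was also called in replicates 4 to 6 alone, by 2.96 and 2.47.

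**Figure D3:**
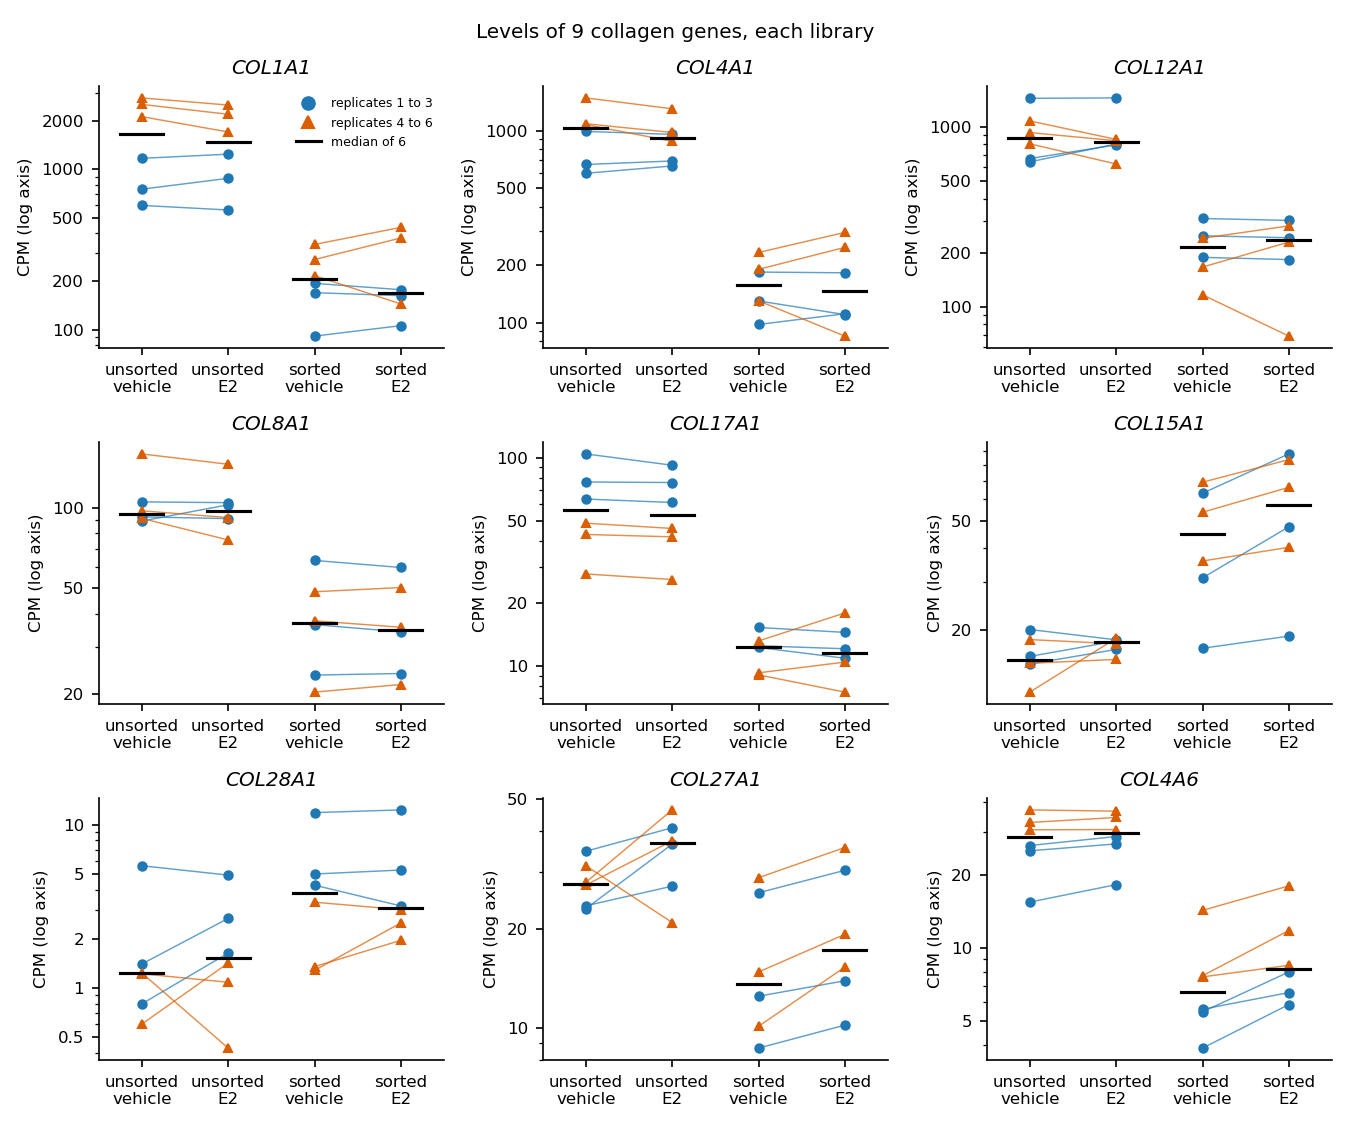
CPM on a log axis in each of the 24 libraries for 9 collagen genes, by group, with circles for replicates 1 to 3, triangles for replicates 4 to 6, lines joining equal numbers and bars at the group median. COL1A1 and COL4A1 fall from unsorted to sorted without overlap, and COL15A1 goes the other way.

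Chains of 1 collagen type did not all shift alike. The log2 read ratio of 2 chains was taken in each library, with 1 read added to each chain. Its difference between sorted and unsorted libraries of equal number was then computed. Gene length and library size cancel in this difference where reads are many. At low counts the added read makes it depend on both. All pairs of expressed chains of a type were used, and not all of them share a trimer. This measure was added after earlier values were seen and is given with no test. In vehicle, 17 of 25 pairs shifted the same way for 6 of 6 numbers, and 17 did so in E2. Many pairs share a gene, so they are not separate observations. The same count was not made for pairs of other genes, so these numbers have no background beside them. COL1A1 to COL1A2 shifted by -0.05 ± 0.08 (log2 of the read ratio, SD, n = 6) and COL4A1 to COL4A2 by 0.00 ± 0.06, near 0 for each number (-0.17 to 0.05 and -0.11 to 0.08). COL5A1 to COL5A2 shifted by -1.30 ± 0.62 and COL4A1 to COL4A3 by -1.64 ± 0.44. COL6A1 to COL6A3 shifted by -1.71 ± 0.81 and COL6A2 to COL6A3 by -1.96 ± 0.80, against 0.24 ± 0.34 for COL6A1 to COL6A2. These are vehicle values. In E2 COL6A1 to COL6A2 shifted by -0.71 ± 0.66, lower for 5 of 6 numbers. The sorted E2 libraries held only 2 to 105 COL6A1 reads and 29 to 223 COL6A2 reads, so this shift is uncertain.

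Gene order was read from RefSeq (assembly ARS-UI_Ramb_v3.0), where all 42 symbols have an entry. Adjacent collagen genes formed 6 pairs, COL1A1 and COL1A2 not among them. COL4A1 and COL4A2 lie side by side and fell by the same amount. COL5A2 and COL3A1 are neighbours, and fell by 1.23 and 2.47 on the log2 scale. COL4A4 and COL4A3 fell by 1.64 and 0.94, and COL4A5 and COL4A6 fell by 2.38 and 1.94. COL6A1 and COL6A2 fell by 2.73 and 2.92.

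E2 and vehicle were then compared in the cells selected by the viral reporter. COL4A6, COL27A1 and COL15A1 rose and 0 collagen genes fell. They were 3 of 33 tested, where 13.2% of all 14334 genes were called, 7.03% higher and 6.20% lower, so the share was near the background. In 0 of the 33 were the groups apart, which held for 1.03% of all genes with E2 higher and 0.579% with E2 lower. Of the marker lists, 0 of 8 fibroblast and pericyte genes and 0 of 8 endothelial genes were called, and 2 of 7 folliculostellate and stem cell genes were lower. At an unadjusted p under 0.05 there were 7 collagen genes higher and 0 lower. Over all 14334 genes 1657 were higher and 1737 lower at that cutoff. The median of the 33 was 0.06, and 28 were above 0. That median did not keep its sign: it was -0.0026 in replicates 1 to 3 alone and -0.010 without replicate 5, against 0.11 in replicates 4 to 6 alone. All 3 calls depended on the pairing: without the replicate block each had an adjusted p of 0.9999.

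COL15A1 ranged from 17.2 to 69.0 CPM (median 44.7) in sorted vehicle and from 19.1 to 87.5 CPM (median 56.9) in sorted E2 libraries. The groups overlapped widely, and the E2 library was the higher of the pair for 6 of 6 numbers, from 17.2 to 19.1 CPM in replicate 2 up to 63.0 to 87.5 CPM in replicate 3. It rose by 0.35 ± 0.06 (1.28-fold; adjusted p = 0.00027), and by 0.49 ± 0.10 in replicates 1 to 3 and 0.27 ± 0.07 in replicates 4 to 6. Leaving out each number kept the call, at 0.32 to 0.40.

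COL27A1 (ENSOARG00000006078), a fibrillar collagen of cartilage, ranged from 8.68 to 28.8 CPM (median 13.7) in vehicle and from 10.2 to 35.6 CPM (median 17.3) in E2. It was higher with E2 for 6 of 6 numbers and rose by 0.38 ± 0.08 (1.30-fold; adjusted p = 0.0013). Its call held in replicates 4 to 6 alone (0.44 ± 0.09; adjusted p = 0.0077) and not in replicates 1 to 3 alone (0.23 ± 0.13; adjusted p = 0.47). COL4A6 (ENSOARG00000018317), a type IV chain, ranged from 3.89 to 14.3 CPM (median 6.62) in vehicle and from 5.87 to 18.0 CPM (median 8.25) in E2. It too was higher for 6 of 6 numbers, and rose by 0.42 ± 0.10 (1.34-fold; adjusted p = 0.0053). It passed in neither depth set alone (adjusted p = 0.30 and 0.059). COL4A5, its neighbour on the chromosome, stood at 0.06 ± 0.09.

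COL11A2 (0.41 ± 0.14; adjusted p = 0.054) and COL6A2 (0.38 ± 0.13; adjusted p = 0.060) lay just outside the threshold, each with the E2 library higher for 5 of 6 numbers. COL11A2 was called without replicate 1 (adjusted p = 0.042), and COL6A2 without replicate 4 (0.027), as was COL16A1. With no filter COL6A2 was called too (0.38; adjusted p = 0.016). Its neighbour COL6A1 stood at -0.32 and was not called. COL6A1 was lower with E2 for each number, at 0.367 to 5.13 CPM in sorted E2 libraries. Collagen genes of high CPM were not called. COL1A1 stood at 0.08 ± 0.15 (95% interval -0.29 to 0.44), COL1A2 at 0.01 ± 0.15, COL3A1 at -0.02 ± 0.15, COL4A1 at 0.05 ± 0.14 (-0.30 to 0.41) and COL12A1 at 0.01 ± 0.15. The intervals of COL1A1 and COL4A1 take in the values of COL15A1 and COL27A1, so changes of that size were not detectable there. COL5A2 stood at 0.06 ± 0.04 (-0.02 to 0.14) and COL8A1 at 0.02 ± 0.06 (-0.10 to 0.14), both with narrower intervals.

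In unsorted cells 0 of 35 collagen genes were called with E2, where 5.24% of all 15083 genes were called, 2.86% higher and 2.37% lower. COL26A1, not expressed over the 4 groups, passed the filter here. At an unadjusted p under 0.05 there were 0 higher and 2 lower, and DESeq2 called 0. Over all 15083 genes 1107 were higher and 1203 lower at that unadjusted cutoff. The 35 values ran from -0.30 to 0.27 with a median of -0.07, and 24 were below 0. The median was 0.048 in replicates 1 to 3 alone and -0.12 in replicates 4 to 6 alone. COL1A1 stood at -0.08 ± 0.06 (95% interval -0.21 to 0.04), COL4A1 at -0.09 ± 0.05 (-0.19 to 0.02), COL12A1 at -0.06 ± 0.10 and COL15A1 at 0.17 ± 0.09 (-0.02 to 0.35). In replicates 4 to 6 alone 4 of 39 collagen genes were called lower: COL1A1 (-0.22), COL5A1 (-0.26), COL12A1 (-0.28) and COL4A2 (-0.19). Over all 15891 genes of that fit 331 were called lower and 399 higher. In replicates 1 to 3 alone COL1A1 stood at 0.07 ± 0.07.

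COL27A1 ranged from 23.1 to 34.7 CPM (median 27.6) in unsorted vehicle and from 21.0 to 46.4 CPM (median 36.9) in unsorted E2 libraries. It was higher with E2 for 5 of 6 numbers and fell in replicate 5, from 31.3 to 21.0 CPM. With all 6 numbers it stood at 0.27 ± 0.20 (adjusted p = 0.64), and without replicate 5 it rose by 0.51 (adjusted p = 0.000147; 0.000147 to 0.862 over the numbers left out). COL7A1, at -0.30 ± 0.25 the lowest value of the 35, was called lower only with no filter, as COL27A1 was called higher there.

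**Figure D4:**
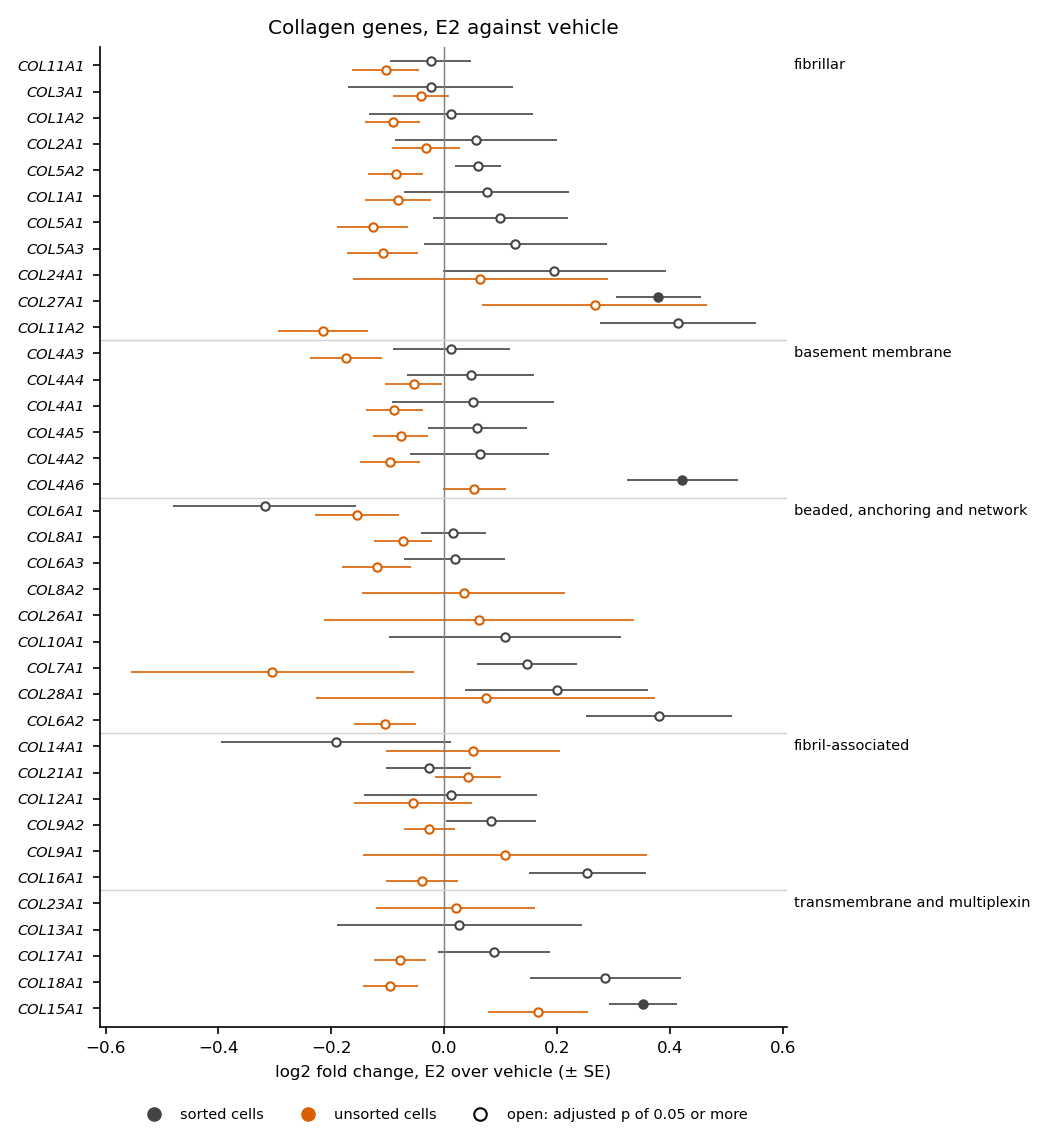
Log2 fold change of E2 against vehicle for each tested collagen gene, by class, in sorted and in unsorted cells, with bars of 1 SE and filled symbols for an adjusted p under 0.05. COL4A6, COL27A1 and COL15A1 in sorted cells, at 0.42, 0.38 and 0.35, are the filled symbols, and all unsorted values lie between -0.30 and 0.27.

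The difference of the E2 effects, sorted minus unsorted, was tested over all 24 libraries. Of 36 collagen genes 0 were called, where 0.463% of all 15134 genes were. At an unadjusted p under 0.05 there was 1 higher and 0 lower, and DESeq2 called 0. Over all 15134 genes 510 were higher and 303 lower at that unadjusted cutoff. So the calls in sorted cells are not shown to differ from unsorted cells: the difference was 0.21 ± 0.35 for COL15A1, 0.11 ± 0.34 for COL27A1 and 0.36 ± 0.20 for COL4A6. The highest values were those of COL23A1, at 0.60 ± 0.43, and COL11A2, at 0.58 ± 0.28 (adjusted p = 0.91). A fit that pairs each E2 library with the vehicle library of its own number and preparation was added after the data were seen. In it COL11A2 differed by 0.63 ± 0.15 (adjusted p = 0.017), COL6A2 by 0.47 ± 0.13 (adjusted p = 0.051) and COL4A6 by 0.36 ± 0.10 (adjusted p = 0.059). COL15A1 stood at 0.18 ± 0.11 (adjusted p = 0.57) and COL27A1 at 0.11 ± 0.21 (adjusted p = 0.90). COL11A2 was the 1 gene called of 36. This fit called 2.36% of all genes (1.66% higher and 0.700% lower), so the share was near the background. At an unadjusted p under 0.05 it had 7 collagen genes higher and 0 lower. The number over all genes at that cutoff is not given for this fit, so this count has no background and is not read as a result.

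Genes that fold, process and bind collagen were taken as 4 lists. For the sort in vehicle 52 of their 60 tested genes were called, against 63.6% of all genes (31.1% lower and 32.5% higher). Of 20 folding and modification genes tested 15 were lower and 1 higher in sorted vehicle libraries (median -1.13). The smallest p-values were those of P3H2, a prolyl hydroxylase (-1.93 ± 0.07), FKBP10, a procollagen chaperone (-2.64 ± 0.10), CRTAP, a partner of prolyl hydroxylase (-2.18 ± 0.09), and PLOD2, a lysyl hydroxylase (-2.40 ± 0.11). COLGALT2, a collagen galactosyltransferase, was higher (0.36 ± 0.12).

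Of 16 secretion, processing and crosslinking genes 9 were lower and 5 higher (median -1.09). The lysyl oxidases LOXL2 and LOXL3 were lower by -2.93 ± 0.14 and -2.05 ± 0.07, the propeptide proteinases ADAMTS2 and BMP1 by -2.05 ± 0.13 and -1.23 ± 0.09. The 5 that were higher were MIA3 and SEC24D, which act in export from the endoplasmic reticulum, the proteinases TLL1 and TLL2, and PCOLCE2. Of 7 receptors 5 were lower and 1, ITGA10, was higher (median -1.14), led by the endocytic receptor MRC2 (-3.14 ± 0.14). Of 17 collagen-binding matrix genes 15 were lower and 1, DCN, was higher (median -2.15), with SPARC at -2.90 ± 0.10 and FMOD at -3.14 ± 0.12.

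With E2, 6 of 60 tested genes of these lists were called in sorted cells, against 13.2% of all genes, and 2 of 64 in unsorted cells, against 5.24% of all genes. TMEM38B, an endoplasmic reticulum cation channel needed for collagen modification, rose by 0.53 ± 0.09 (adjusted p = 0.00039) in sorted and 0.65 ± 0.09 (adjusted p = 3.0e-05) in unsorted cells. TLL1, a procollagen C-proteinase of the BMP1 family, rose by 0.95 ± 0.17 (adjusted p = 0.00082) and 1.25 ± 0.25 (adjusted p = 0.010). In sorted cells BMP1 (0.24 ± 0.05), the laminin chain gene LAMB1 (0.33 ± 0.07) and the collagen receptor gene DDR1 (0.14 ± 0.04) were also called higher and the integrin subunit gene ITGB1 (-0.15 ± 0.03) lower. In unsorted cells these stood at -0.02 ± 0.04, -0.05 ± 0.04, 0.06 ± 0.04 and -0.08 ± 0.05. The test of the difference, with the replicate number as its block, called 0 of 63 genes of the 4 lists. It called 0.463% of all genes. The fit that pairs libraries within each preparation is not given for these lists. Whether their E2 effects differ between preparations is therefore not decided here.

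Levels also differed between the depth sets within a group, which the labels do not describe as batches. In unsorted vehicle libraries 24 of the 36 expressed collagen genes had the higher mean in replicates 4 to 6, with a median ratio of 1.34, and 12 had all 3 deep libraries above all 3 shallow ones. COL1A1 was 2.96 times as high in the deep set, COL5A3 2.82 times and COL5A1 2.48 times, while COL17A1 stood at a ratio of 0.49 and COL28A1 at 0.39. In sorted vehicle libraries the median ratio was 1.19, and that of COL1A1 was 1.82. The same counts and ratios were not made over all genes. The difference between depth sets is therefore not shown to be particular to collagen genes. The cause was not tested.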

How the data were processed

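RNA-seq was made from 24 libraries, 4 groups of 6, each from 500 ng of total RNA per the labels. The deposited counts are whole reads per gene, made by the authors with featureCounts 1.5.1 per the submitters' processing notes. Which aligner, build and strandedness were used is not given in the sources used here. Reads of overlapping genes therefore cannot be separated, and no position is printed. The vehicle libraries stand in 2 of the 3 count tables, and 0 values differ between the copies. The authors' own comparison tables were not used.

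Each comparison was fitted on the whole table with edgeR 4.0.16 in R 4.3.3: TMM, filterByExpr on the groups compared, robust glmQLFit and the 2-sided quasi-likelihood F-test, with the replicate number as a block, and Benjamini-Hochberg adjustment over all genes tested. Expressed means passing that filter over 4 groups. The SE is the log2 fold change over the square root of F, and 95% intervals use its degrees of freedom. The script was tested on simulated data. No interval here covers counting error alone.

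No label says that equal numbers share a culture. In group-centred log2 CPM, libraries of equal number correlated at r = 0.291 to 0.859 in all comparisons and best with their own number.

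Named are collagen genes called with E2, the 12 largest falls and rises per sort comparison, the gene of highest mean CPM in each class and up to 4 genes per list, and further collagen genes chosen after their values were seen. COL19A1 and COL20A1 are not analysed here. The genes, lists and tests were chosen with earlier results of these data known. Alternatives were no block, DESeq2 1.42.0, RLE scaling, no filter, a stricter filter (1 CPM in 6 libraries), each depth set alone, each number left out, and the share without PRL.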

Additional observations from a re-analysis of the deposited data

Results flagged for a closer look

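Of 48 sets of 6 libraries examined, for 11 collagen genes and the collagen share, 6 held a library far from the others by Dixon's criterion (0.625), where chance gives about 1 in 20. COL28A1 was highest in replicate 2 in each group, and replicate 2 stood apart in 3: at 11.8 CPM in sorted vehicle, 5.59 CPM in unsorted vehicle and 12.3 CPM in sorted E2. COL8A1 stood at 159 CPM in unsorted vehicle replicate 6, against 89.1 to 105 CPM in the others. COL12A1 stood at 1451 CPM in unsorted E2 replicate 3, and at 1443 CPM in unsorted vehicle replicate 3, also the highest there. COL4A6 stood at 14.3 CPM in sorted vehicle replicate 6, and at 18.0 CPM in sorted E2 replicate 6, the highest of its group.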

How the results depend on the processing

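Without the replicate block, E2 in sorted cells called 0 collagen genes higher in place of 3, and the sort with E2 called 1 in place of 2. Over all genes these fits without the block called 159 of 14334 and 3749 of 14545 higher. The collagen counts without the block were otherwise within 1.5 times those of the paired fit. In replicates 1 to 3 alone E2 in sorted cells called 1 higher, and in replicates 4 to 6 alone E2 in unsorted cells called 4 lower and the sort with E2 called 5 higher. Over all genes those fits called, in the same order and directions, 389 of 13273, 331 of 15891 and 5050 of 15606. With no filter, E2 in unsorted cells called 1 higher and 1 lower, and the sort with E2 called 6 higher. Over all genes the former called 564 higher and 553 lower of 22112, and the latter 5122 higher of 22070. Leaving out a number gave 1 to 4 higher for the sort in vehicle (1 without replicate 6), 3 to 5 for E2 in sorted cells (5 without replicate 4), 0 to 1 higher (1 without replicate 5) and 0 to 1 lower (1 without replicate 1) for E2 in unsorted cells, and 2 to 5 for the sort with E2 (5 without replicate 1 or 3, 4 without replicate 2). These fits without a number tested 13294 to 15832 genes each. Over all genes they called 3849 to 4677 higher for the sort in vehicle and 785 to 967 higher for E2 in sorted cells. For E2 in unsorted cells they called 275 to 485 higher and 176 to 353 lower, and for the sort with E2 4145 to 5055 higher. With the replicate block within each preparation, 1 collagen gene differed in its E2 effect, where 2.36% of all genes did. Similar counts hid changes of genes: for the sort in vehicle DESeq2 lost COL9A1 and COL14A1 (adjusted p = 0.058 and 0.057) and gained COL21A1 and COL6A3 (0.0145 and 0.0185), and no block lost COL28A1 and COL14A1 (0.081 and 0.28) and gained COL21A1 and COL6A3 (0.046 and 0.039). In replicates 4 to 6 alone COL28A1, COL27A1 and COL14A1 were not called. For the sort with E2, no block lost COL28A1 and COL27A1 (0.069 and 0.053) and gained COL6A3 (0.046), DESeq2 gained COL6A3 (0.0017), and replicates 4 to 6 alone lost COL27A1, COL21A1 and COL14A1. The causes were not tested.

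Directions reversed for uncalled values near 0. For the sort in vehicle, COL24A1 stood at 0.0077 with RLE scaling and with no filter, 0.38 in replicates 4 to 6 alone and 0.039 to 0.143 without one number, and COL7A1 at 0.11 in replicates 1 to 3 alone and -0.36 to 0.032 without one number. With E2, COL24A1 stood at -0.29 in replicates 1 to 3 alone and -0.061 to 0.264 without one number, and COL7A1 at -0.028 to 0.344. COL1A1 with E2 stood at -0.014 to 0.216 without one number in sorted cells and at 0.069 in replicates 1 to 3 alone in unsorted cells. The COL27A1 difference of E2 effects stood at -0.088 in replicates 1 to 3 alone and -0.14 to 0.21 without one number. Depth limits genes under 1 CPM.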
